A study of Arabidopsis thaliana with 32 samples.

Results

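The genes described are 9 Arabidopsis thaliana genes known from work on low oxygen: FTM1 (AT1G43800), PCO1 (AT5G15120), ACO1 (AT2G19590), HB1 (AT2G16060), LBD41 (AT3G02550), LBD40 (AT1G67100), SUS4 (AT3G43190), AT3G03270 and AT1G19530. They were chosen by gene identifier, with earlier results of these data known. All 9 were found, each at 1 of the 4882 loci that the authors' deposited tables list. The 9 loci hold 48 of the 10961 entries of those tables. Whole roots were sampled from seedlings of the sku5 mutant, which carries a mutation in a gene affecting the direction of root growth, and of its wild type background WS (Wassilewskija). Seedlings of both genotypes germinated from dormant seed on solid medium in the Veggie plant growth unit, either in spaceflight on the International Space Station or as a ground control started 48 h later, and were fixed at 8 d or 4 d. The 8 groups were thus sku5 and WS in spaceflight at 8 d and at 4 d, and sku5 and WS on the ground at the same ages. Each group had 4 samples, and each sample pooled 2 to 3 roots at 8 d or 5 to 8 roots at 4 d.

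Plant cells read the oxygen supply through group VII ethylene response factors. Plant cysteine oxidases use oxygen to oxidise the amino-terminal cysteine of these factors, which marks them for breakdown by the N-degron pathway. When oxygen falls the factors persist and switch on genes for sucrose cleavage, glycolysis and fermentation, for haemoglobin and for the oxidases themselves. Dense tissues such as root tips and young meristems are known to be low in oxygen even in air. Among the 9 genes, PCO1 encodes a plant cysteine oxidase and ACO1 an ACC oxidase, the enzyme of the last step of ethylene synthesis. SUS4 encodes a sucrose synthase, which cleaves sucrose for glycolysis. HB1 encodes a class 1 haemoglobin, which binds oxygen tightly and scavenges nitric oxide. FTM1 encodes a stearoyl-acyl carrier protein desaturase, an enzyme that makes unsaturated fatty acids. AT3G03270 encodes a universal stress protein induced by low oxygen, and LBD41 and LBD40 are transcription factors with a LOB domain. AT1G19530 has no gene name in the tables.

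The values are FPKM, which scale a fragment count to transcript length and library size. The authors' deposited tables give 1 FPKM value for each group, pooled over its 4 samples, and list a locus only where their Cuffdiff test marked it significant at a q-value under 0.05. A gene called higher or lower below was so marked, and the error beside a log2 fold change is its standard error (SE), taken as the log2 fold change divided by the authors' test statistic. Where that statistic is small, the deposited p-values are smaller than this SE alone would give. No spread between samples can be computed, the depth of the libraries is unknown, and a gene that is not listed is not shown to be equal between the groups. Each comparison is set beside the percentage of the 4882 listed loci that it called. Because every one of the 9 genes is listed somewhere, that percentage is the background among loci that changed in at least 1 comparison, not among all genes. Comparisons that share a group of samples are not independent of each other. In whole roots, fewer cells of a type and less RNA per cell cannot be told apart.

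As a check of the labels, SKU5 itself was lower in sku5 roots in each of the 3 comparisons of the genotypes, by 4.35-fold in spaceflight at 8 d, 3.34-fold on the ground at 8 d and 3.72-fold on the ground at 4 d in the authors' deposited tables. Of 7 root markers, SKU5, EIR1 and RHS19 are listed, and the other 4 have no value in the tables. Transcripts of other tissues stood apart at 4 d. GEA6, a late embryogenesis gene of the seed, had 1205 FPKM in spaceflight and 2.06 FPKM on the ground in sku5, and 452 FPKM in spaceflight and 191 FPKM on the ground in WS, in the authors' deposited tables. The summed level of 5 called green-tissue markers in WS at 4 d was 514 FPKM in spaceflight and 239 FPKM on the ground in the authors' deposited table, whereas 0 of the 10 green-tissue markers was called in sku5 at 4 d.

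The 9 genes differed most between the ages. On the ground in sku5, 9 of 9 were called, 8 of them higher at 8 d and LBD40 lower, where 20.9% of the listed loci were called (10.5% higher and 10.3% lower). Their median log2 fold change was 1.90, against 0.43 over all loci called. In WS on the ground 6 of 9 were called, 5 higher and 1 lower, where the background was 22.6% (10.5% higher, 12.1% lower), and their median was 1.24 against −0.49 over all called loci. In spaceflight 7 of 9 were called in sku5, 5 higher and 2 lower (background 36.4%, with 14.3% higher and 22.1% lower), with a median of 0.56 against −0.66. In WS in spaceflight 6 of 9 were called, 4 higher and 2 lower (background 22.0%, with 9.61% higher and 12.4% lower), with a median of 0.84 against −0.51. The 9 genes were chosen with earlier results of these data known, so these counts are not a test of hypoxia genes as a class. Among 14 other listed loci of a wider list of hypoxia-induced genes, 4 were called on the ground in sku5, all higher at 8 d.

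**Figure D1:**
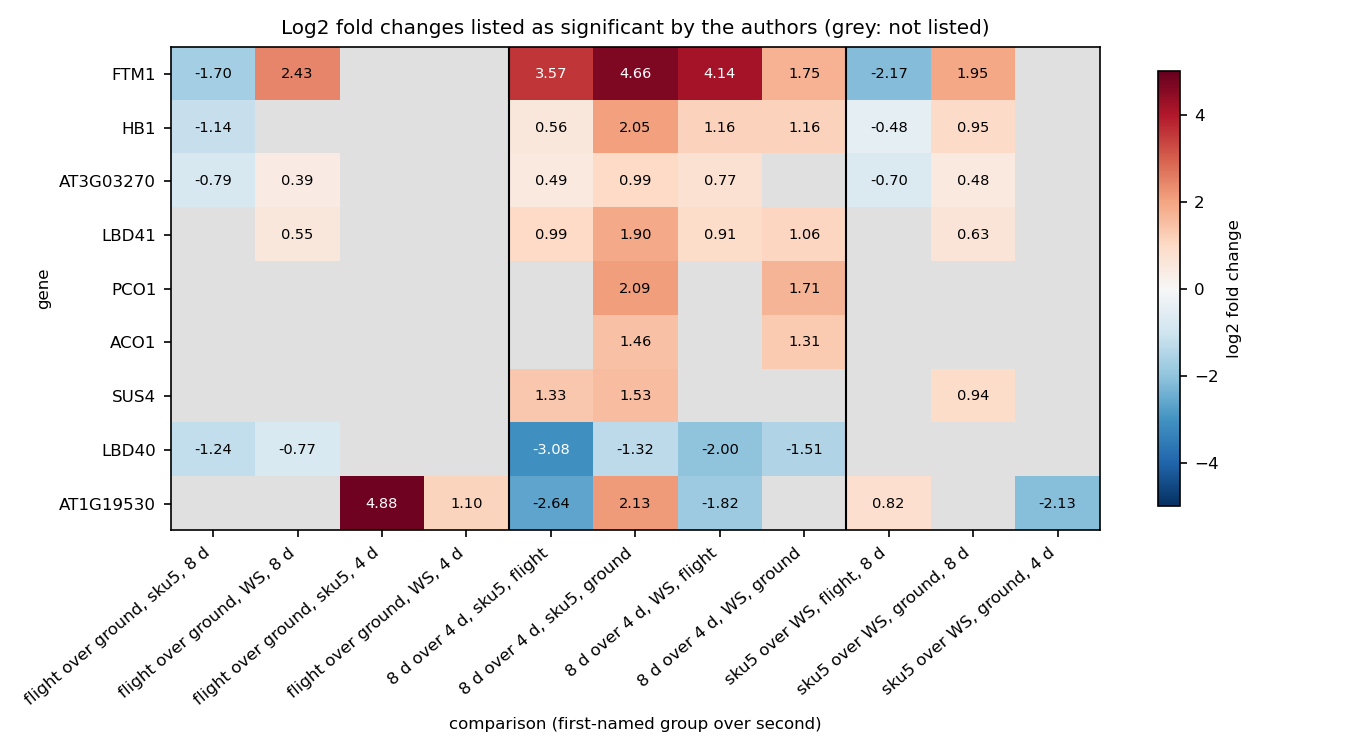
Log2 fold changes of the 9 genes (rows) in the 11 comparisons (columns), as listed in the authors' deposited tables, with the first-named group over the second. Red cells are higher and blue cells lower in the first-named group, and grey cells are not listed as significant. FTM1, HB1 and LBD41 are red and LBD40 is blue in each of the 4 comparisons of 8 d with 4 d.

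PCO1, the oxygen-sensing oxidase, was called in these age comparisons alone, and there on the ground. It had 16.7 FPKM at 8 d and 3.91 FPKM at 4 d in sku5 in the authors' deposited table, 4.27-fold higher at 8 d (log2 fold change 2.09 ± 0.64 SE, q = 0.00209). The WS roots had 13.1 FPKM at 8 d and 3.99 FPKM at 4 d in the authors' deposited table, 3.27-fold higher at 8 d (q = 0.00217). Both genotypes were thus alike in direction, and PCO1 has no value in any spaceflight group because no comparison that includes spaceflight roots lists it.

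Its close relative PCO2, also a cysteine oxidase, was listed in 5 comparisons. At 8 d and 4 d on the ground it had 14.6 and 5.42 FPKM in sku5, and 10.97 and 4.45 FPKM in WS, in the authors' deposited tables. In spaceflight in WS it had 14.01 FPKM at 8 d and 5.41 FPKM at 4 d in the authors' deposited table (q = 0.00218). PCO2 was higher at 8 d in these 3 comparisons and is not listed for age in sku5 in spaceflight. Reads of PCO1 and PCO2 could be shared where their sequences match, and the sources used here do not say how the authors assigned such reads.

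Of 16 genes of oxygen sensing, 6 loci are listed in any table. RAP2.3, one of the group VII factors, went the other way with age in WS from PCO2, and on the ground from PCO1 too. It had 51.7 FPKM at 8 d and 169 FPKM at 4 d in spaceflight in WS, and 43.6 FPKM at 8 d and 104 FPKM at 4 d on the ground in WS, in the authors' deposited tables. In sku5 in spaceflight RAP2.3 was 6.52-fold lower at 8 d (54.5 FPKM at 8 d, 355 FPKM at 4 d, q = 0.00125) in the authors' deposited table. No age comparison in sku5 lists RAP2.3 together with PCO1 or PCO2. PRT6, the ubiquitin ligase of the N-degron pathway, was lower at 8 d in sku5 on the ground (11.7 FPKM at 8 d, 24.6 FPKM at 4 d, q = 0.0285) and in spaceflight (8.58 FPKM at 8 d, 17.4 FPKM at 4 d, q = 0.0497) in the authors' deposited tables. The locus of ACBP1, a membrane acyl-CoA-binding protein that holds group VII factors in check, merges it with 2 other genes. At 8 d that locus had 158 FPKM in spaceflight and 227 FPKM on the ground in sku5, and 218 FPKM in spaceflight and 138 FPKM on the ground in WS, in the authors' deposited tables.

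ACO1, of ethylene synthesis, had the same pattern of calls as PCO1. It had 79.6 FPKM at 8 d and 29.0 FPKM at 4 d in sku5 on the ground in the authors' deposited table, 2.75-fold higher at 8 d (log2 fold change 1.46 ± 0.83 SE, q = 0.0165). In WS on the ground it had 79.6 FPKM at 8 d and 32.1 FPKM at 4 d in the authors' deposited table, 2.48-fold higher (1.31 ± 0.69 SE, q = 0.0202). The levels of the genotypes lay close together at each age, and ACO1 is listed in no comparison of genotypes and in none of spaceflight. The locus that carries its name spans chromosome 2 from 8166124 to 8198803 in the coordinates of the files (the sources used here do not name the build), 32679 bases against a gene of 2458 bases in the RefSeq annotation, and what else lies in it is not given in the tables.

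Of 14 genes of ethylene synthesis and response, 6 loci are listed. ACO5, another ACC oxidase, was lower at 8 d on the ground in sku5 (149 FPKM at 8 d, 224 FPKM at 4 d, q = 0.00209) in the authors' deposited table. Its other 3 calls were higher in spaceflight or in sku5. In WS at 8 d ACO5 had 162 FPKM in spaceflight and 126 FPKM on the ground. On the ground it had 158 FPKM in sku5 and 126 FPKM in WS at 8 d. At 4 d on the ground the values were 218 FPKM in sku5 and 150 FPKM in WS, all in the authors' deposited tables. EBF2, an F-box protein that restrains ethylene signalling, was lower at 8 d in spaceflight in both genotypes, at 21.4 FPKM at 8 d and 35.5 FPKM at 4 d in sku5 and 16.8 FPKM at 8 d and 29.2 FPKM at 4 d in WS, in the authors' deposited tables. Within 8-d roots EBF2 was higher in spaceflight in WS (18.4 FPKM in spaceflight, 12.2 FPKM on the ground). It was also higher in sku5 on the ground (21.5 FPKM in sku5, 12.2 FPKM in WS), in the authors' deposited tables. ACS6, an ACC synthase, was listed once, higher at 8 d in sku5 in spaceflight (9.48 FPKM at 8 d, 4.13 FPKM at 4 d) in the authors' deposited table.

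SUS4, the sucrose synthase, was higher at 8 d in sku5 in both environments. It had 3.59 FPKM at 8 d and 1.43 FPKM at 4 d in spaceflight in the authors' deposited table, 2.52-fold higher (log2 fold change 1.33 ± 0.63 SE, q = 0.00125). On the ground it had 4.81 FPKM at 8 d and 1.67 FPKM at 4 d in the authors' deposited table, 2.88-fold higher (1.53 ± 0.60 SE, q = 0.00209). These are low levels, and reads that match both SUS4 and its near copy SUS1 could have been split between them. SUS1 is listed in no table. The locus named SUS4 spans 7680 bases against 5096 bases for the gene in the RefSeq annotation. SUS3, the other listed member of the 6 sucrose synthase genes, was lower at 8 d in sku5 in spaceflight (3.96 FPKM at 8 d, 32.5 FPKM at 4 d, q = 0.00737) in the authors' deposited table.

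The fermentation genes that are best known as induced by low oxygen, ADH1, PDC1 and PDC2, are listed in no table. Of 16 genes of glycolysis and fermentation, 5 loci are listed, among them the glycolytic enolase ENO2, the glyceraldehyde-3-phosphate dehydrogenases GAPC1 and GAPC2, and GAD1, a glutamate decarboxylase. In sku5 in spaceflight 3 of these 5 were higher at 8 d, where 14.3% of all listed loci were, with GAD1 at 168 FPKM at 8 d and 98.0 FPKM at 4 d and ENO2 at 442 FPKM at 8 d and 311 FPKM at 4 d in the authors' deposited table. At 4 d in sku5 GAPC1 had 523 FPKM in spaceflight and 829 FPKM on the ground, and the merged locus of the aldolase FBA8 had 414 FPKM in spaceflight and 634 FPKM on the ground, in the authors' deposited table. GAPC2 was lower at 8 d in WS on the ground (697 FPKM at 8 d, 915 FPKM at 4 d) and higher in sku5 than in WS on the ground at 8 d (923 FPKM in sku5, 714 FPKM in WS) in the authors' deposited tables. At 8 d ENO2 and GAD1 were higher in spaceflight in sku5, with GAD1 at 175 FPKM in spaceflight and 139 FPKM on the ground in the authors' deposited table. Both were also higher in sku5 than in WS in spaceflight at 8 d, ENO2 at 461 FPKM in sku5 and 343 FPKM in WS and GAD1 at 175 FPKM in sku5 and 106 FPKM in WS, in the authors' deposited table.

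HB1, the haemoglobin, was higher at 8 d in all 4 age comparisons. In sku5 it had 77.5 FPKM at 8 d and 52.5 FPKM at 4 d in spaceflight, and 166 FPKM at 8 d and 39.9 FPKM at 4 d on the ground, in the authors' deposited tables. The log2 fold changes were 0.56 ± 0.35 SE (q = 0.0185) in spaceflight and 2.05 ± 0.35 SE (q = 0.00209) on the ground, in the authors' deposited tables. In WS it had 102 FPKM at 8 d and 45.5 FPKM at 4 d in spaceflight, and 89.5 FPKM at 8 d and 40.01 FPKM at 4 d on the ground, in the authors' deposited tables. The 4 groups of 4-d roots lay between 39.3 and 51.8 FPKM on a common scale, below each of the 4 groups of 8-d roots, which lay between 76.4 and 169 FPKM. Much of this separation follows from the calls of HB1 in all 4 age comparisons. In order the 8-d groups were ground sku5 (169 FPKM), spaceflight WS (106), ground WS (87.8) and spaceflight sku5 (76.4), of which the neighbours spaceflight WS and ground WS are not listed as different. The difference of the age effects, spaceflight minus ground, was −1.49 ± 0.50 SE on the log2 scale in sku5 and −0.0033 ± 0.48 SE in WS.

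FTM1, the desaturase, had the widest range of the 9 genes, with a 53.5-fold difference between its highest and lowest group. In sku5 it had 4.84 FPKM at 8 d and 0.408 FPKM at 4 d in spaceflight, and 15.2 FPKM at 8 d and 0.600 FPKM at 4 d on the ground, in the authors' deposited tables. Its levels in WS were 20.6 FPKM at 8 d and 1.17 FPKM at 4 d in spaceflight, and 4.09 FPKM at 8 d and 1.21 FPKM at 4 d on the ground, in the authors' deposited tables. FTM1 was thus low in all 4-d roots, at 0.402 to 1.22 FPKM on the common scale, and the fold changes of 3.37 to 25.3 rest on those low levels. Their standard errors on the log2 scale ran between 0.87 and 1.39. FTM1 is the one listed gene of 7 desaturase genes of its family.

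AT3G03270, the universal stress protein, was higher at 8 d in 3 of the 4 age comparisons, by smaller steps. In spaceflight it had 115 FPKM at 8 d and 82.0 FPKM at 4 d in sku5 (q = 0.0360), and 177 FPKM at 8 d and 103 FPKM at 4 d in WS, in the authors' deposited tables. On the ground in sku5 it had 193 FPKM at 8 d and 97.4 FPKM at 4 d in the authors' deposited table, 1.98-fold higher (log2 fold change 0.99 ± 0.31 SE, q = 0.00209). For WS on the ground the comparison of the ages does not list it.

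LBD41 and LBD40, relatives in the same class of LOB-domain factors, differed in direction in each of the 4 age comparisons. LBD41 was higher at 8 d, with 13.7 FPKM at 8 d and 6.90 FPKM at 4 d in spaceflight in sku5 and 17.5 FPKM at 8 d and 4.70 FPKM at 4 d on the ground in sku5, in the authors' deposited tables. In WS LBD41 had 16.1 FPKM at 8 d and 8.54 FPKM at 4 d in spaceflight, and 11.8 FPKM at 8 d and 5.64 FPKM at 4 d on the ground, in the authors' deposited tables. The log2 fold changes of LBD41 lay between 0.91 and 1.90.

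LBD40 was lower at 8 d. It had 9.32 FPKM at 8 d and 78.7 FPKM at 4 d in spaceflight in sku5, and 21.3 FPKM at 8 d and 53.2 FPKM at 4 d on the ground in sku5, in the authors' deposited tables. In WS LBD40 had 12.5 FPKM at 8 d and 49.7 FPKM at 4 d in spaceflight, and 22.7 FPKM at 8 d and 64.8 FPKM at 4 d on the ground, in the authors' deposited tables. Its lowest 4-d group lay at 52.0 FPKM and its highest 8-d group at 22.2 FPKM on the common scale, so that the ages did not overlap. LBD40 was called in all 4 age comparisons, so much of this separation follows from those calls. The locus named LBD40 spans 4761 bases in the files against 1192 bases for the gene in the RefSeq annotation. No other gene of the 6 in this class is listed.

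Markers of other tissues moved with age as well. Called green-tissue markers were all lower at 8 d, with summed levels of 71.3 FPKM at 8 d and 227 FPKM at 4 d in sku5 in spaceflight (4 of 10 called) and 72.6 FPKM at 8 d and 230 FPKM at 4 d in sku5 on the ground (3 of 10) in the authors' deposited tables. In WS the sums were 102 FPKM at 8 d and 528 FPKM at 4 d in spaceflight, and 106 FPKM at 8 d and 260 FPKM at 4 d on the ground, with 5 of 10 called in each of the authors' deposited tables. Seed markers were lower at 8 d in sku5 in spaceflight, where 6 of 10 were called with a sum of 246 FPKM at 8 d and 6478 FPKM at 4 d in the authors' deposited table. In WS 3 seed markers in spaceflight and 4 on the ground were called, all at 0 at 8 d, with sums at 4 d of 80.9 and 77.5 FPKM in the authors' deposited tables, and on the ground in sku5 0 of 10 was called. The part of green-tissue and seed transcripts in the age differences was not tested.

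**Figure D2:**
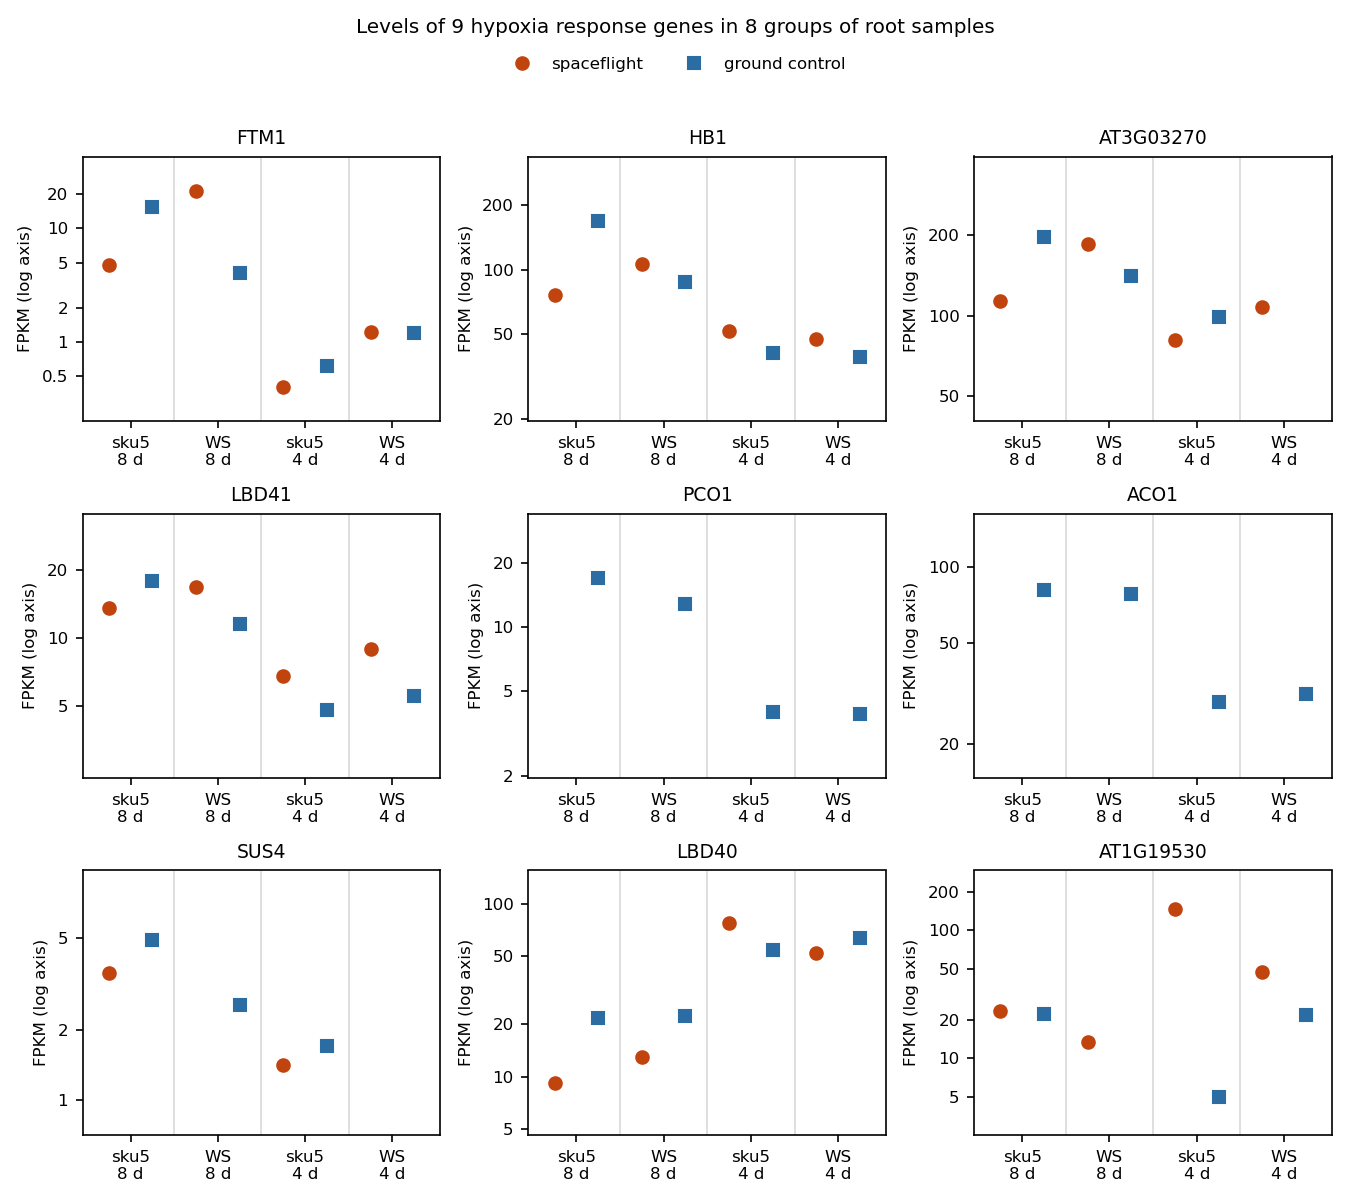
FPKM of the 9 genes (log axis) in the 8 groups, on a common scale across the authors' deposited tables, with 1 point for each group and no error because the tables hold 1 pooled value per group. Circles are spaceflight and squares ground control; groups without a point have no value in any table. HB1, FTM1 and LBD41 are higher and LBD40 lower in each 8-d group than in any 4-d group. These genes were called in all 4 age comparisons, so much of that separation follows from the calls. AT1G19530 is highest in spaceflight sku5 roots at 4 d.

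At 8 d, spaceflight went with lower levels of several of the 9 genes in sku5, and in WS with higher levels of 3 genes and a lower level of LBD40. In sku5 4 of 9 were called, all lower in spaceflight, where 33.8% of the listed loci were called (22.7% lower, 11.1% higher). Their median log2 fold change was −1.19, against −0.50 over all loci called. In WS also 4 of 9 were called, 3 higher and 1 lower, where the background was 18.2% (8.4% higher, 9.79% lower), with a median of 0.47 against −0.33.

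FTM1 changed in opposite directions in the genotypes. It had 5.05 FPKM in spaceflight and 16.4 FPKM on the ground in sku5 in the authors' deposited table, which is 3.24-fold lower in spaceflight (log2 fold change −1.70 ± 0.50 SE, q = 0.00136). Its WS level was 22.5 FPKM in spaceflight and 4.19 FPKM on the ground in the authors' deposited table, 5.38-fold higher in spaceflight (2.43 ± 0.46 SE, q = 0.00259). The difference of these effects, sku5 minus WS, was −4.12 ± 0.68 SE. In order of level FTM1 ran from spaceflight WS at 8 d (21.5 FPKM on the common scale) through ground sku5 (15.5), spaceflight sku5 (4.77) and ground WS (4.01), and the neighbours in this order at 8 d are pairs that the tables do not compare or that were called.

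AT3G03270 moved the same way with smaller steps. It had 120 FPKM in spaceflight and 208 FPKM on the ground in sku5 in the authors' deposited table (log2 fold change −0.79 ± 0.23 SE, q = 0.00136). The WS roots had 194 FPKM in spaceflight and 147 FPKM on the ground in the authors' deposited table (0.39 ± 0.21 SE, q = 0.00635). The difference, sku5 minus WS, was −1.18 ± 0.31 SE.

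HB1 was called in sku5, with 80.9 FPKM in spaceflight and 179 FPKM on the ground in the authors' deposited table, which is 2.21-fold lower in spaceflight (log2 fold change −1.14 ± 0.25 SE, q = 0.00136). In WS it is not listed for this comparison, and its levels on the common scale were 106 FPKM in spaceflight and 87.8 FPKM on the ground. LBD41 was called in WS, with 17.6 FPKM in spaceflight and 12.0 FPKM on the ground in the authors' deposited table (0.55 ± 0.34 SE, q = 0.0436). In sku5 LBD41 is not listed for this comparison, and its levels on the common scale were 13.6 FPKM in spaceflight and 17.9 FPKM on the ground.

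LBD40 was lower in spaceflight in both genotypes. It had 9.72 FPKM in spaceflight and 23.0 FPKM on the ground in sku5 in the authors' deposited table, which is 2.36-fold lower (log2 fold change −1.24 ± 0.58 SE, q = 0.00136). In WS it had 13.7 FPKM in spaceflight and 23.2 FPKM on the ground in the authors' deposited table, which is 1.70-fold lower (−0.77 ± 0.39 SE, q = 0.00960). The difference between the genotypes, −0.47 ± 0.70 SE, was smaller than its error. Over all 6 comparisons that list it, LBD40 was lower in spaceflight or at 8 d.

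Of the 312 loci called for spaceflight in both genotypes at 8 d, 35 (11.2%) had opposite directions, and of the 3 genes here called in both, FTM1 and AT3G03270 did. In sku5 5 of 10 seed markers were called at 8 d, all higher in spaceflight, with a sum of 255 FPKM in spaceflight and 3.93 FPKM on the ground and 2 at 0 on the ground, in the authors' deposited table. In WS 0 of 10 was called, and 0 of 10 green-tissue markers was called in either genotype. The 3 listed root markers were called in sku5 too, EIR1 higher (17.4 FPKM in spaceflight, 9.89 FPKM on the ground) and RHS19 (72.7 FPKM in spaceflight, 119 FPKM on the ground; RHS19 marks root hairs) and SKU5 (14.2 FPKM in spaceflight, 23.8 FPKM on the ground) lower, in the authors' deposited table. In WS 1 root marker was called, SKU5, lower in spaceflight (61.3 FPKM in spaceflight, 78.6 FPKM on the ground) in the authors' deposited table. The part of the seed and root marker transcripts in these differences was not tested.

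**Figure D3:**
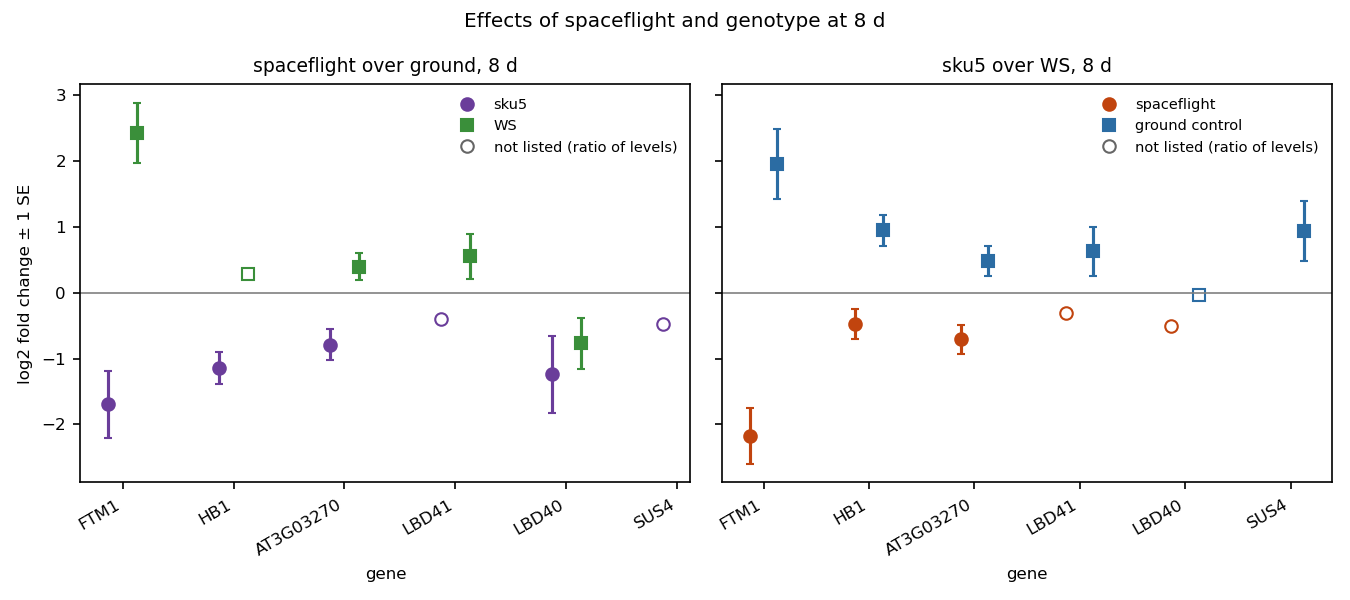
Log2 fold changes at 8 d of 6 of the 9 genes; PCO1, ACO1 and AT1G19530 are not drawn. The left panel has spaceflight over ground in sku5 (circles) and WS (squares), and the right panel sku5 over WS in spaceflight (circles) and on the ground (squares). Filled points are from the authors' deposited tables with bars of 1 SE, and open points are ratios of common-scale levels for comparisons that do not list the gene. FTM1 stands at −1.70 in sku5 and 2.43 in WS on the left, and at −2.17 in spaceflight and 1.95 on the ground on the right.

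The comparisons of the genotypes at 8 d use the same 4 groups of samples and show the same levels from the other side. In spaceflight 4 of 9 genes were called, FTM1, HB1 and AT3G03270 lower and AT1G19530 higher in sku5 than in WS, where 28.9% of the listed loci were called (17.0% lower, 11.9% higher). Their median log2 fold change was −0.59 against −0.38 over all called loci. On the ground 5 of 9 were called, all higher in sku5, where the background was 10.8% (6.51% higher, 4.24% lower), with a median of 0.94 against 0.50.

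FTM1 had 5.04 FPKM in sku5 and 22.8 FPKM in WS in spaceflight, and 16.2 FPKM in sku5 and 4.19 FPKM in WS on the ground, in the authors' deposited tables. HB1 had 80.8 FPKM in sku5 and 113 FPKM in WS in spaceflight (log2 fold change −0.48 ± 0.23 SE, q = 0.00182), and 177 FPKM in sku5 and 91.7 FPKM in WS on the ground (0.95 ± 0.24 SE, q = 0.00381), in the authors' deposited tables. AT3G03270 had 120 FPKM in sku5 and 196 FPKM in WS in spaceflight, and 206 FPKM in sku5 and 148 FPKM in WS on the ground, in the authors' deposited tables. These 3 genes were the ones called in both environments, and each was lower in sku5 in spaceflight and higher on the ground. Over all loci called in both, 36 of 156 (23.1%) had opposite directions. HB2, the other listed haemoglobin of 3, was also lower in sku5 in spaceflight in the authors' deposited table (17.3 FPKM in sku5, 51.3 FPKM in WS, q = 0.00322).

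On the ground LBD41 and SUS4 were higher in sku5 too. LBD41 had 18.7 FPKM in sku5 and 12.0 FPKM in WS in the authors' deposited table (log2 fold change 0.63 ± 0.37 SE, q = 0.0182). SUS4 had 5.12 FPKM in sku5 and 2.68 FPKM in WS in the authors' deposited table (0.94 ± 0.46 SE, q = 0.00660). CML38, a calmodulin-like protein gene of the wider list of hypoxia-induced genes, had 18.5 FPKM in sku5 and 8.66 FPKM in WS on the ground in the authors' deposited table (q = 0.0200). One green-tissue marker, RBCS1A, was called in each environment and was lower in sku5 (63.3 FPKM in sku5, 98.5 FPKM in WS in spaceflight; 69.4 FPKM in sku5, 96.5 FPKM in WS on the ground) in the authors' deposited tables. One seed marker, SESA2, was called in spaceflight, with 13.9 FPKM in sku5 and a listed value of 0 in WS, in the authors' deposited table. The part of these transcripts in the genotype differences was not tested.

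At 4 d AT1G19530 was the one gene of the 9 that was called for spaceflight, and it was higher in spaceflight in both genotypes. The background was 20.6% of the listed loci in sku5 (12.3% higher, 8.34% lower) and 2.62% in WS (1.29% higher, 1.33% lower). In sku5 it had 139 FPKM in spaceflight and 4.73 FPKM on the ground in the authors' deposited table, 29.4-fold higher in spaceflight (log2 fold change 4.88 ± 0.74 SE, q = 0.00207). In WS it had 43.7 FPKM in spaceflight and 20.4 FPKM on the ground in the authors' deposited table, 2.14-fold higher (1.10 ± 0.59 SE, q = 0.0433). The difference of these effects, sku5 minus WS, was 3.78 ± 0.94 SE. The ground groups themselves differed at 4 d. AT1G19530 had 4.80 FPKM in sku5 and 21.0 FPKM in WS in the authors' deposited table, which is 4.37-fold lower in sku5 (−2.13 ± 0.80 SE, q = 0.00558). It was the one gene of 9 called in that comparison, where the background was 7.8% (3.75% higher, 4.06% lower).

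With age AT1G19530 was lower at 8 d in spaceflight in both genotypes and higher on the ground in sku5. AT1G19530 is not listed for age in WS on the ground, where it has no value at 8 d. In spaceflight it had 23.9 FPKM at 8 d and 149 FPKM at 4 d in sku5 (log2 fold change −2.64 ± 0.42 SE, q = 0.00125), and 12.7 FPKM at 8 d and 44.9 FPKM at 4 d in WS (−1.82 ± 0.53 SE, q = 0.00218), in the authors' deposited tables. On the ground in sku5 it had 21.6 FPKM at 8 d and 4.92 FPKM at 4 d in the authors' deposited table (2.13 ± 0.73 SE, q = 0.00209). The difference of the age effects in sku5, spaceflight minus ground, was −4.78 ± 0.84 SE. Over all loci called for age in both environments in sku5, 13 of 423 (3.07%) had opposite directions. At 8 d in spaceflight AT1G19530 had 24.9 FPKM in sku5 and 14.1 FPKM in WS in the authors' deposited table (0.82 ± 0.43 SE, q = 0.0101). The highest levels on the common scale were in spaceflight roots at 4 d (147 FPKM in sku5, 46.9 FPKM in WS) and the lowest in ground sku5 roots at 4 d (5.01 FPKM). Between them lay 8-d roots of sku5 in spaceflight (23.5 FPKM) and on the ground (22.0), ground WS at 4 d (21.9) and spaceflight WS at 8 d (13.3). Spaceflight and ground are not listed as different in sku5 at 8 d.

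A few genes of oxygen sensing, ethylene response and the wider hypoxia list were also called for spaceflight at 4 d. In sku5 they were 1 of 6 listed sensing loci, 1 of 6 ethylene loci and 3 of 14 other wider-list loci. These shares lie close to the 20.6% of all listed loci called there. In WS they were 1 of 6, 1 of 6 and 1 of 14, beside 2.62% of all listed loci called, with ETR2 counted in both of the last 2. RAP2.3 had 331 FPKM in spaceflight and 60.3 FPKM on the ground in sku5, and 165 FPKM in spaceflight and 95.9 FPKM on the ground in WS, in the authors' deposited tables. The locus of AT3G10020, a hypoxia-induced gene, merges it with AT3G10030 and had 258 FPKM in spaceflight and 64.9 FPKM on the ground in sku5 in the authors' deposited table (q = 0.00207). It was 1 of 3 called among the 14 other listed loci of a wider list of hypoxia-induced genes, beside ACHT5, higher in spaceflight (36.4 FPKM in spaceflight, 17.0 FPKM on the ground), and AT5G66985, lower in spaceflight (80.2 FPKM in spaceflight, 144 FPKM on the ground), in the authors' deposited table. EBF2 had 33.0 FPKM in spaceflight and 9.72 FPKM on the ground in sku5 in the authors' deposited table (q = 0.0360). ETR2, an ethylene receptor, had 2.92 FPKM in spaceflight and 0.863 FPKM on the ground in WS in the authors' deposited table (q = 0.0433).

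Seed transcripts had the order of AT1G19530 over the 4 groups at 4 d. GEA6 was at 1275 FPKM in spaceflight sku5, 484 FPKM in spaceflight WS, 204 FPKM in ground WS and 2.17 FPKM in ground sku5 on the common scale, the same order as AT1G19530. At 8 d in sku5 GEA6 was at 36.4 FPKM in spaceflight and 1.74 FPKM on the ground on the common scale, where AT1G19530 had 23.5 FPKM in spaceflight and 22.0 FPKM on the ground. In sku5 2 of 10 seed markers were called at 4 d, with a sum of 1272 FPKM in spaceflight and 2.06 FPKM on the ground and 1 at 0 on the ground, in the authors' deposited table. In WS 2 of 10 were called, with a sum of 514 FPKM in spaceflight and 215 FPKM on the ground, in the authors' deposited table. Between the genotypes on the ground 2 were called, with a sum of 2.08 FPKM in sku5 and 205 FPKM in WS and 1 at 0 in sku5, in the authors' deposited table. The part of seed transcripts in the levels of AT1G19530 and RAP2.3 was not tested.

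For spaceflight at 4 d no table comparing the genotypes was analysed here, so that only levels can be set side by side. On the common scale FTM1 had 0.402 FPKM in sku5 and 1.22 FPKM in WS, HB1 51.8 and 47.7, LBD41 6.80 and 8.94, LBD40 77.6 and 52.0, AT3G03270 80.9 and 108, and AT1G19530 147 and 46.9, each with sku5 named before WS. FTM1, HB1, LBD41, LBD40 and AT3G03270 are listed in no comparison of spaceflight with ground at 4 d. The ratios of their levels there were mixed in direction and none is listed. HB1 and LBD41 were higher in spaceflight in both genotypes (HB1 by 1.27-fold in sku5 and 1.21-fold in WS, LBD41 by 1.42-fold in sku5 and 1.61-fold in WS). FTM1 was 1.52-fold lower and AT3G03270 1.23-fold lower in spaceflight in sku5, and LBD40 was 1.43-fold higher in sku5 and 1.22-fold lower in WS. SUS4, also unlisted there, was 1.21-fold lower in spaceflight in sku5.

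The 9 genes belong to a wider list of 49 genes known as induced by low oxygen in Arabidopsis, of which 14 others are listed in any table. Those 14 loci were called 31 times, 14 times higher and 17 times lower. The 9 genes were called 48 times, 33 times higher and 15 times lower. All 4882 listed loci together were called 10961 times over the same 11 comparisons. These totals were not turned into shares, and the directions over all loci were not totalled. The directions of the 14 and of the 9 can therefore not be judged from them. For spaceflight in sku5 at 8 d, 33.8% of all listed loci were called (22.7% lower, 11.1% higher). Of the 14 loci, 7 were lower there and 0 higher, with a median log2 fold change of −1.16 against −0.50 over all called loci. Among them were AT5G66985 (69.0 FPKM in spaceflight, 185 FPKM on the ground), AT4G17670 (63.8 FPKM in spaceflight, 143 FPKM on the ground) and CML38 (6.58 FPKM in spaceflight, 18.7 FPKM on the ground) in the authors' deposited table. PCO2 was also lower there, at 9.57 FPKM in spaceflight and 15.7 FPKM on the ground, as was HRA1, a trihelix factor that restrains a group VII factor, at 2.10 FPKM in spaceflight and 4.59 FPKM on the ground, in the authors' deposited table. In WS at 8 d the authors' Cuffdiff test called 0 of the 14, where 18.2% of all listed loci were called. Values of loci that did not pass are not in the tables.

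With age in sku5, 4 were called on the ground, all higher at 8 d (PCO2, AT4G17670, CML38 and PHI-1), where 10.5% of all listed loci were higher. In sku5 in spaceflight 4 other loci were called, all lower at 8 d (AT2G15880, AT3G10020, AT3G23170 and AT4G27450), where 22.1% of all listed loci were lower. With age in WS 4 were called in spaceflight, 3 higher and 1 lower, and 2 on the ground, both higher, beside 22.0% and 22.6% of all listed loci called. In the comparison of sku5 with WS at 8 d, 4 were called in spaceflight, all lower in sku5, where 28.9% of all listed loci were called, among them AT5G66985 at 68.9 FPKM in sku5 and 125 FPKM in WS in the authors' deposited table. On the ground 2 were called, both higher in sku5, where 10.8% of all listed loci were called, among them AT5G66985 at 183 FPKM in sku5 and 121 FPKM in WS in the authors' deposited table. AT5G66985 thus had the directions of FTM1, HB1 and AT3G03270 in both environments.

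**Figure D4:**
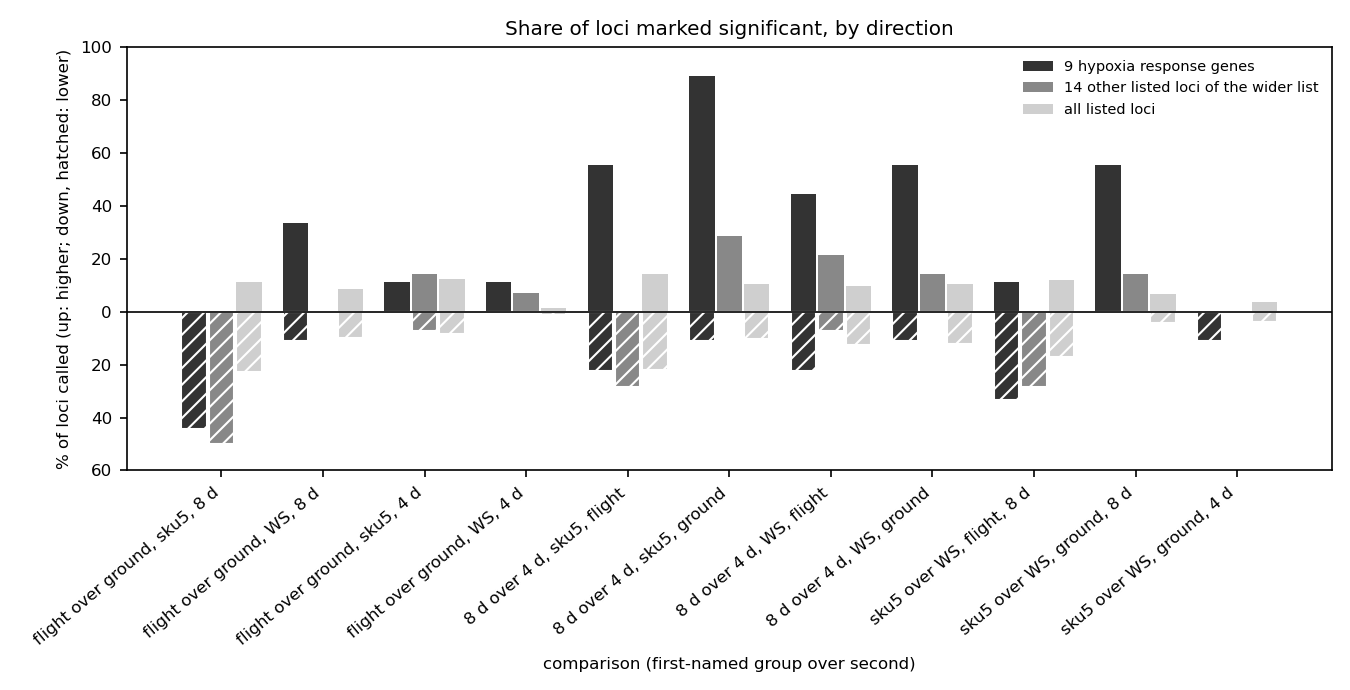
Percentage of loci called higher (bars up) and lower (hatched bars down) in each of the 11 comparisons, for the 9 genes (black), the 14 other listed loci of the wider list (mid grey) and all 4882 listed loci (light grey). For sku5 at 8 d, spaceflight over ground, the first 2 sets have bars down alone, with 4 of 9 and 7 of 14 loci lower, beside 22.7% of all listed loci.

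FTM1, HB1, LBD41 and LBD40 have a value in all 8 groups because each was called in all 4 comparisons of the ages, so the sign and much of the size of the correlations among them follow from that choice. Over the 8 groups the Pearson correlation of log2(FPKM + 1) was 0.90 for FTM1 with HB1, 0.92 for FTM1 with LBD41 and 0.93 for HB1 with LBD41. For LBD40 it was −0.81 with FTM1, −0.72 with HB1 and −0.84 with LBD41. The points are the same 8 pooled groups for every gene, 4 at 8 d and 4 at 4 d.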

How the data were processed

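Libraries were made from 10 ng of total RNA per sample with the SMART-Seq v4 and Nextera kits, per the labels' protocols. Tools named in the submitters' processing notes, with no roles, are Cuffdiff, Cufflinks, Picard, STAR 2.5.1b, FastQC 0.11.2 and Trimmomatic 0.36, and the genome build and the annotation are not given in the sources used here. The authors deposited 11 tables of Cuffdiff results, with 1 FPKM value per group and locus. Per the file headers the tables also hold the authors' log2 fold change, a test statistic (a signed score), and the p-value and q-value, all as deposited. The deposited p-values come in steps of 5e-05, which is also the smallest.

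Fold changes were turned so that spaceflight, 8 d and sku5 are the numerators. Tables differ in scale by up to 10.8%, by 1 factor per table: in the 20 cases where a pair of tables holds the same group, the largest residual after fitting these factors was 0.0045 on the log2 scale. Levels were divided by the factor of their table and the median taken over tables, which is the common scale. The differences of effects have the root of the summed squared SEs as their SE. No test was made, because the tables hold no values per library, so p and q are the authors' Cuffdiff values. The fit of the factors and the levels on the common scale were tested on simulated data, and the counts were not. Alternatives were q under 0.01, at least 2-fold, no merged loci, deposited levels and log2(FPKM + 1) with a pseudocount of 1. Python 3.11.15, pandas 2.3.3, numpy 2.4.6 and matplotlib 3.10.9 were used.

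The 9 genes, the lists and the rule for named genes were chosen with earlier results of these data known. The named genes are the 9, the 5 loci of each list that are listed in most comparisons, relatives in the same family, and the 3 loci most similar to each gene with values in all 8 groups; ACHT5, ACS6, AT2G15880, AT3G10020, AT3G23170, AT4G17670, AT4G27450, AT5G66985, CML38, HRA1 and PHI-1 are named beyond it, after their values were seen. A gene that the rule covers is not reported here. Only 276 of 4446 loci of single genes (6.21%) overlap the same gene at the RefSeq coordinates, so RefSeq was used for names and gene lengths alone, and no sequence is shown.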

Additional observations from a re-analysis of the deposited data

Results flagged for a closer look

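Directions turned round between groups in 6 cases, and in each of them the 2 effects are both marked significant in the authors' deposited tables. The differences themselves were not tested, since no values per library were used. For spaceflight at 8 d the effect in sku5 minus that in WS was −4.12 for FTM1 (SE 0.68) and −1.18 for AT3G03270 (SE 0.31) on the log2 scale. For the genotypes at 8 d the effect in spaceflight minus that on the ground was −4.12 for FTM1 (SE 0.69), −1.42 for HB1 (SE 0.33) and −1.19 for AT3G03270 (SE 0.31). These rest on the same 4 groups of samples as the spaceflight differences and are not separate results. For age in sku5 the effect in spaceflight minus that on the ground was −4.78 for AT1G19530 (SE 0.84).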

How the results depend on the processing

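All 30 differences of effects kept their direction on the log2(FPKM + 1) scale. With the values as deposited in place of the common scale, all 59 levels moved by less than the smallest SE of their gene on the log2 scale. That replacement changes a level only by the factors of the tables, so it is a weak check. The loci of ACO1, LBD40 and SUS4 are longer than those genes in the RefSeq annotation, and what else lies in them is not given. All 9 loci carry a single gene name, so leaving out loci that merge named genes could not change the counts of the 9. The count of the wider list of 49 genes then stayed within 1.5 times in all 11 comparisons, but for age in sku5 in spaceflight it was 9, with 5 higher and 4 lower, in place of 11 with 5 higher and 6 lower. At a q-value under 0.01 the 9 genes gave 0 calls for spaceflight in WS at 4 d, 4 for age in spaceflight sku5 roots and 3 for age in ground WS roots (0.0%, 21.1% and 12.2% of all listed loci), where the wider list gave 0, 5 and 5. In WS at 4 d no locus of any kind has a q-value under 0.01. Among changes of 2-fold or more the 9 genes gave 1 call for spaceflight in WS at 8 d, 4 for age in sku5 in spaceflight, and 1 each for sku5 over WS at 8 d in spaceflight and on the ground (2.93%, 17.8%, 2.85% and 1.52% of all listed loci). The wider list gave 1, 2 and 2 for spaceflight in WS at 8 d and for sku5 over WS in spaceflight and on the ground. No paired analysis was possible because the tables hold pooled values, and for the same reason no replicate could be left out and no outlying sample looked for. These results are limited because the tables hold called loci alone, so the number of genes tested and the depth of the libraries are unknown. An SE from the test statistic is also a rough scale, from which the deposited p-values depart where that statistic is small. HB1 for age in sku5 in spaceflight had a test statistic of 1.61 and a Cuffdiff p-value of 0.00135. The SEs of the differences of effects share this limit.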

Other observations

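For each gene with a value in all 8 groups, the 3 loci of single genes with the most similar pattern were taken out of 188 that have values in all 8 groups, by the Pearson correlation of log2(FPKM + 1) over the groups. The 8 points are the same pooled groups for every gene and fall into 2 ages. For HB1 the nearest locus was that of GSTF14, a glutathione S-transferase gene (r = 0.98), whose levels at 8 d were 251 FPKM in spaceflight and 410 FPKM on the ground in sku5, and 265 FPKM in spaceflight and 266 FPKM on the ground in WS, on the common scale. The second was AILP1 (r = 0.94), and the third was another locus with the name of GSTF14 (r = 0.93). For FTM1 the nearest were AT5G10130 (r = 0.95), AT3G22550 (r = 0.95) and LTP5, a lipid transfer protein gene (r = 0.89). For LBD41 LTP5 came first (r = 0.96), followed by AT1G59740 and GSTF14 (both r = 0.94). LBD40, which was lower at 8 d, had LTP2, another lipid transfer protein gene (r = 0.97), GH3.3, which encodes an enzyme that conjugates auxin to amino acids (r = 0.95), and FLA13, an arabinogalactan protein gene (r = 0.94). LTP2 lay between 201 and 248 FPKM in the 4 groups at 4 d and between 45.1 and 73.0 FPKM in the 4 groups at 8 d on the common scale.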
